A study of Mus musculus with 4 samples.

Results

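Methylated Pontin peaks whose centre lay more than 250 bp and at most 2500 bp along the transcribed side from the nearest transcription start site (TSS) were taken from the peak list of glucose-starved mouse embryonic fibroblasts (MEFs). Each peak was assigned to the nearest TSS of any transcript in the GENCODE vM21 annotation of mm10, and peaks within 1000 bp of both members of a divergent pair of protein-coding genes were left out. The rule selected 537 of the 4311 peaks (12.5%, 95% Wilson interval 11.5 to 13.5%), and they belonged to 536 genes, since Rgs12 alone carried 2 of them. They are called downstream peaks here. Chromatin immunoprecipitation followed by sequencing (ChIP-seq) was done with an antibody to methylated Pontin in MEFs kept in normal media or under glucose starvation, and an input library was made for each medium, giving 4 libraries with 1 per group. The peak list analysed here was that of the starved ChIP library set against an input, it came from 20765512 tags, and the other libraries served for no comparison of their own. MEFs are fibroblast cultures made from mouse embryos, no replicate was available, and the spread between cultures is therefore unknown. All tests below run across peaks of 1 library and do not measure that spread.

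Pontin (RUVBL1) is an ATPase of the AAA+ family that forms rings with Reptin and serves as a subunit of chromatin-remodelling and histone acetyltransferase complexes such as INO80, SRCAP and TIP60. CARM1 is an arginine methyltransferase that acts on histones and on coregulators, and the antibody reads its mark on Pontin. The stretch just downstream of a TSS holds the first well-positioned nucleosomes, the pause site of RNA polymerase II, the first splice donor of most genes and often the second side of a CpG island, a region in which CpG dinucleotides have been kept at high density.

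To show how unlike in sequence the regions with the highest fold over input were, the central 200 bp of 4 of the 10 highest, all at the lowest input level, are printed on the strand of the gene (GRCm38/mm10), with every CpG in capitals. Iars encodes the cytosolic isoleucyl-tRNA synthetase (first intron, 310 bp from the TSS, plus strand, chr13:49682401-49682600), Tsacc a co-chaperone of a testis-specific kinase (first intron, 835 bp, minus strand, chr3:88295903-88296102), Gm47962 a long non-coding RNA from a bidirectional promoter (first exon, 306 bp, plus strand, chr10:84441032-84441231) and Naa16 an auxiliary subunit of an N-terminal acetyltransferase (first intron, 619 bp, minus strand, chr14:79389971-79390170).
Iars: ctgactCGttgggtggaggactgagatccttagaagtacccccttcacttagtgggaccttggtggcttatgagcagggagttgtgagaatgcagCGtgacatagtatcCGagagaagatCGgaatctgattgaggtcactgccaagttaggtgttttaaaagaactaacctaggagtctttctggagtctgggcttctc
Tsacc: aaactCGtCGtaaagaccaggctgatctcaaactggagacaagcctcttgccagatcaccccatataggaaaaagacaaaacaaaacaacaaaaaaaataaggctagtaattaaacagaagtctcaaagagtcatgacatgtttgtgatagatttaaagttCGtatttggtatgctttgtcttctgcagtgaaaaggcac
Gm47962: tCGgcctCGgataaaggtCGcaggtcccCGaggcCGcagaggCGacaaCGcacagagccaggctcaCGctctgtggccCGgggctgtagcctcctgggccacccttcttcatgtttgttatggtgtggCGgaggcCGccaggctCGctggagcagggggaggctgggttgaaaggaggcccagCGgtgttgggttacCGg
Naa16: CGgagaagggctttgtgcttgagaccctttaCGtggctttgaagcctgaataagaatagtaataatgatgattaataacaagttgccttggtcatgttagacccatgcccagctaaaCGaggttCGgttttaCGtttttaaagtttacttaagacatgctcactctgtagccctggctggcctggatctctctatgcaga
The Gm47962 window held 14 CpGs at a GC content of 66.5%, whereas the windows of Iars, Tsacc and Naa16 held 4, 3 and 5 at 48.5, 37.5 and 43.5%.

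Forkhead Box O 3a (FOXO3a), the transcription factor the study links to methylated Pontin, recognises a core whose 7-bp form GTAAACA was searched on both strands, and 15 downstream peaks contained it. The central 200 bp of 4 of them are shown because they carry that sequence, which is in capitals and reads TGTTTAC where it lies on the opposite strand. They belong to Snx13, a sorting nexin (first intron, 300 bp from the TSS, plus strand, chr12:35047417-35047616), Grpel1, the nucleotide exchange factor of the mitochondrial Hsp70 (first intron, 436 bp, plus strand, chr5:36465334-36465533), Tmem171, a transmembrane protein (first intron, 1285 bp, minus strand, chr13:98693383-98693582) and Rgs12, a regulator of G protein signalling (first intron, 614 bp, plus strand, chr5:34949962-34950161).
Snx13: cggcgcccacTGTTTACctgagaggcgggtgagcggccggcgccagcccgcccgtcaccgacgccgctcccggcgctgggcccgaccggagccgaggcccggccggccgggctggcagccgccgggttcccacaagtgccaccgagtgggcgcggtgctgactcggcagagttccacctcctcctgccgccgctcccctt
Grpel1: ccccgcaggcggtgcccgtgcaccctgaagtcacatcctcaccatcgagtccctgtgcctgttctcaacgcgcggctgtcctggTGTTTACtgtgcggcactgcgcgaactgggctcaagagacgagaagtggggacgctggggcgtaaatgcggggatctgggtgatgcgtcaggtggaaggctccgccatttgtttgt
Tmem171: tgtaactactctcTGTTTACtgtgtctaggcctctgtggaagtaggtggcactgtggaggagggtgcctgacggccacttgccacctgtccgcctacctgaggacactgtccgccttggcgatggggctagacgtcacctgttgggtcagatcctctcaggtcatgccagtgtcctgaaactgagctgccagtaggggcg
Rgs12: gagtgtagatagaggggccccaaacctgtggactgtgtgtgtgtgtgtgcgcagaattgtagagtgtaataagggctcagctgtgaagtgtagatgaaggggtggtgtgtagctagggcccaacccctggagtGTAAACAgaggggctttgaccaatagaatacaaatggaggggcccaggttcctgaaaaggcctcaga
The 7-bp sequence began at base 11 of the Snx13 window, 85 of the Grpel1 window, 14 of the Tmem171 window and 134 of the Rgs12 window, at a different place in each of these 4 windows.

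The downstream peaks crowded towards the TSS. The median distance was 424 bp (quartiles 323 and 649 bp), and 332 of the 537 lay up to 500 bp from the TSS, 125 beyond 500 and up to 1000 bp and 80 beyond 1000 bp. Among the peaks not at divergent pairs, counted per 100 bp, the first 200 bp of the transcribed side held 404 and 383. The number fell to 152 between 300 and 400 bp, 88 between 400 and 500 bp and 25 between 600 and 700 bp. On the upstream side the count was 169 in the 100 bp next to the TSS, rose to 288 between 200 and 300 bp and fell to 151 between 500 and 600 bp and to 33 between 800 and 900 bp. The upstream peaks, chosen by the same limits on the other side, numbered 1013, and 1421 peaks lay within 250 bp of a single start site. The distance limits cut through a continuous slope. Peaks just inside the inner limit (above 250 and up to 300 bp, n = 94) had a median of 15.3 tags per 10000000, 8.80-fold over input and 63.5% GC, and those just outside (above 200 and up to 250 bp, n = 109) had 14.7 tags, 9.76-fold and 65.5%. Peaks just inside the outer limit (above 2000 and up to 2500 bp, n = 21) had 12.5 tags, 6.23-fold and 52.5% GC, and those just outside (above 2500 and up to 3000 bp, n = 19) had 11.6 tags and 6.54-fold.

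**Figure D1:**
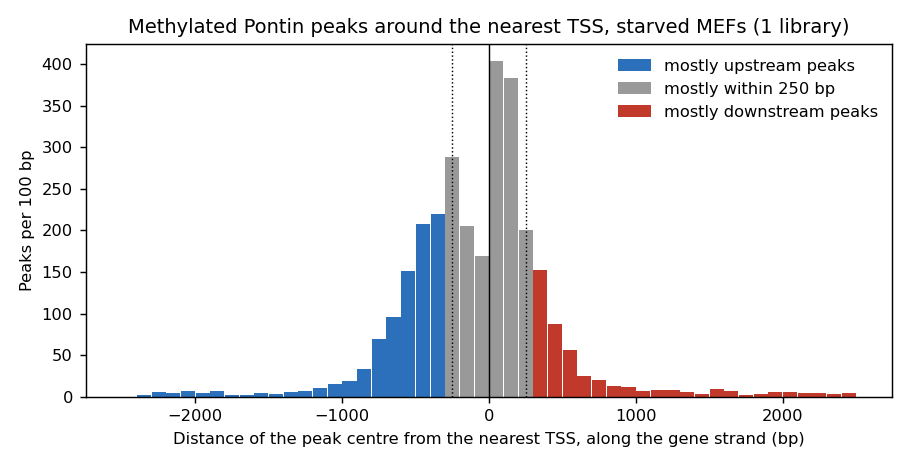
Number of methylated Pontin peaks in each 100 bp of distance between the peak centre and the nearest TSS, signed along the gene strand (x axis, bp). Peaks of the starved library within 2500 bp are counted, with those at divergent pairs left out. Dotted lines mark 250 bp on each side, and the bars right of it fall from 152 between 300 and 400 bp to 25 between 600 and 700 bp while the left side declines more slowly.

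Most downstream peaks were centred in an intron, a place that the distance rule favours where the first exon is short. No matched share was computed at genes without a peak, so a preference for introns cannot be read from these counts. The centre of 354 (65.9%, Wilson interval 61.8 to 69.8%) fell in the first intron of the transcript with the nearest TSS and that of 13 in a later intron. The first exon held 113, of which 34 were in coding sequence and 79 were not, later exons held 24, and 33 centres lay beyond the end of a short transcript. Of the 468 peaks whose transcript had 2 or more exons, 402 (85.9%) lay past the first splice donor, by a median of 289 bp, and the median first exon measured 160 bp. Peaks in coding first exons had a median GC content of 69.5% and a median of 13.0 tags per 10000000, against 54.0% and 14.2 tags in first introns. Only 181 of the 537 (33.7%) were nearest to the first annotated TSS of their gene. The other 356 were nearest to an internal TSS, at a median of 640 bp from the first one, and 71 of them lay more than 2500 bp from it. A further ambiguity comes from neighbours, since 139 (25.9%) also lay within 2500 bp upstream of a TSS of another gene. By gene type, 406 were at protein-coding genes, 39 at lincRNA genes, 34 at antisense genes and 16 at other processed transcripts, and which of overlapping genes a peak belongs to cannot be told apart from its position.

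The signal in the downstream peaks was low and narrow in range. A peak held a median of 14.0 tags per 10000000 (quartiles 11.8 and 16.9, range 8.43 to 112.4), which in this library was a median of 29.1 tags. The upstream peaks had a median of 15.2 (12.8 to 18.1) and the single start site peaks one of 14.7 (12.5 to 17.8), so the ranges between the quartiles overlapped widely in the 3 classes. Fold over input was a median of 8.57 downstream (quartiles 6.11 and 14.9, range 4.05 to 67.3), 9.14 upstream and 9.45 at single start sites. Of the downstream peaks, 291 (54.2%, Wilson interval 50 to 58.4%) were at least 8-fold over input, where 55.9% of all 4311 peaks were. The upstream share was 58.6% (odds ratio 0.835, 95% interval 0.672 to 1.04, two-sided Fisher's exact test, p = 0.0948, 0.158 after Benjamini-Hochberg adjustment over 10 tests). The single start site share was 58.8% (odds ratio 0.830, interval 0.676 to 1.02, Fisher's exact test, p = 0.0729, adjusted p = 0.146). Neither difference passed the threshold, and neither interval excludes equal odds. Against the surrounding 10 kb, the median enrichment was 4.86-fold, just above the 4-fold minimum for a peak, and 309 (57.5%) were under 5-fold. The median was 4.98 upstream, 5.10 at single start sites and 4.93 over all peaks.

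By distance, at least 8-fold over input was reached by 58.1% of the peaks up to 500 bp from the TSS (Wilson interval 52.8 to 63.3%), 52.0% of those up to 1000 bp (43.3 to 60.6%) and 41.2% of those beyond (31.1 to 52.2%). The last share joined 53.1% of the 32 peaks up to 1500 bp (36.4 to 69.1%) and 33.3% of the 48 peaks farther out (21.7 to 47.5%), so the low value came from the farthest peaks. No test of this order was made. At matched distances upstream the shares were 59.9, 57.6 and 54.4%. None of the 3 matched comparisons passed the threshold. Their odds ratios were 0.930 (0.700 to 1.24), 0.798 (0.520 to 1.22) and 0.590 (0.299 to 1.15), with adjusted p of 0.623, 0.372 and 0.162 by Fisher's exact test. Taken over all distances above 500 bp, the odds ratio was 0.690 (Fisher's exact test, unadjusted p = 0.0342).

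The highest tag count stood far from the rest. The peak in the first intron of Pisd-ps2, a transcribed pseudogene of the mitochondrial phosphatidylserine decarboxylase (chr17:3081808-3082288, 1992 bp from the TSS), held 112.4 tags per 10000000, or 233.4 tags in the library (95% Poisson interval 204.4 to 265.3), at 16.2-fold over input. The input was also highest there among the downstream peaks, at 6.93 per 10000000 against a median of 1.55. Next came Zfp827, a zinc finger protein, with 32.0 tags (51.4 to 84.5 in the library) and 13.8-fold, and Adm2, a peptide hormone of the calcitonin family, with 29.1 tags and 9.42-fold. A peak downstream of the gene model Gm49437 held 28.9 tags, one in Shmt2, the mitochondrial serine hydroxymethyltransferase, 27.9, and one beyond the miRNA gene Mir6769b 27.7. The intervals of these 5 counts overlap one another, and only the interval of Pisd-ps2 stands clear of them. Kdm2a, an H3K36 demethylase that binds unmethylated CpGs, and Ep300, the histone acetyltransferase p300, both held 27.0 tags. Their folds were 17.4 and 4.36, because the input level was 1.55 per 10000000 in Kdm2a and 6.19 in Ep300. Krtcap2, a subunit of the oligosaccharyltransferase, held 26.5 tags at 9.79-fold, and Iars 26.0 tags at 67.3-fold.

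The order by fold over input followed the input. The input level behind each peak, obtained as tags divided by fold, took few values, and 70 downstream peaks (13.0%) sat on its lowest step, below 0.45 per 10000000, with the next step at 0.758. Their folds ran from 22.4 to 67.3, and all of the 10 highest folds were among them. Those 10 were Iars, Tsacc (60.4-fold), Slc38a7 (59.2-fold), a lysosomal exporter of glutamine and asparagine, Osbpl1a (56.1-fold), an oxysterol-binding protein of late endosomes, Gm47962 and Mettl4-ps1 (both 52.3-fold), Naa16, the ubiquitin-conjugating enzyme gene Ube2r2 and the deubiquitinase gene Usp38 (all 51.7-fold), and the transcriptional regulator gene Tsc22d1 (48.6-fold). Within this group the fold ranks the ChIP tag count at 1 input level. The same step held 489 of all peaks (11.3%).

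**Figure D2:**
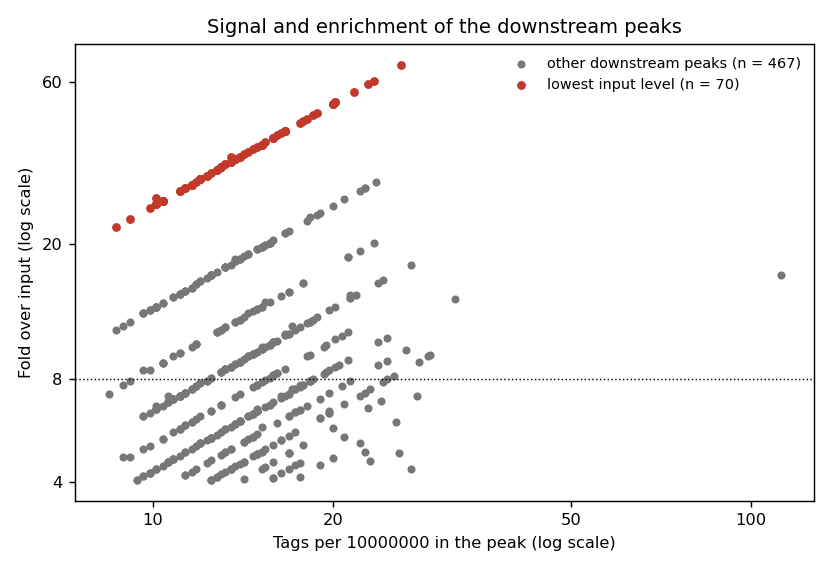
Tags per 10000000 (x axis, log scale) against fold over input (y axis, log scale) for the 537 downstream peaks, 1 point each, with the 70 peaks on the lowest input step in red and a dotted line at 8-fold. The points fall on parallel diagonals, 1 for each input level, the red diagonal spans 22.4 to 67.3-fold, and Pisd-ps2 stands alone at 112.4 tags.

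Tag counts also moved with the chromosome. The downstream peaks had a median of 21.0 tags per 10000000 on chromosome 15 (n = 18) and 19.7 on chromosome 8 (n = 29), against 11.3 on chromosome 7 (n = 39) and 10.6 on the X chromosome (n = 9). All peaks showed like medians there, of 18.1, 18.5, 11.6 and 10.4. The input level behind all peaks had a median of 2.32 per 10000000 on chromosomes 8 and 15 and of 1.55 on most others. The median fold over input of the downstream peaks was 7.58 on chromosome 8, below the 8.57 of all downstream peaks, and 9.21 on chromosome 15, above it. Over all peaks the median fold was 7.96 on chromosome 8 and 8.18 on chromosome 15, both below the 8.81 of the whole list. Chromosomes 8 and 15 held 47 of the 537 downstream peaks (8.75%), 440 of all peaks (10.2%) and 11 of the 20 downstream peaks with the most tags, Zfp827, Adm2 and Ep300 among them. The part of chromosome copy number in these counts was not tested.

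**Figure D3:**
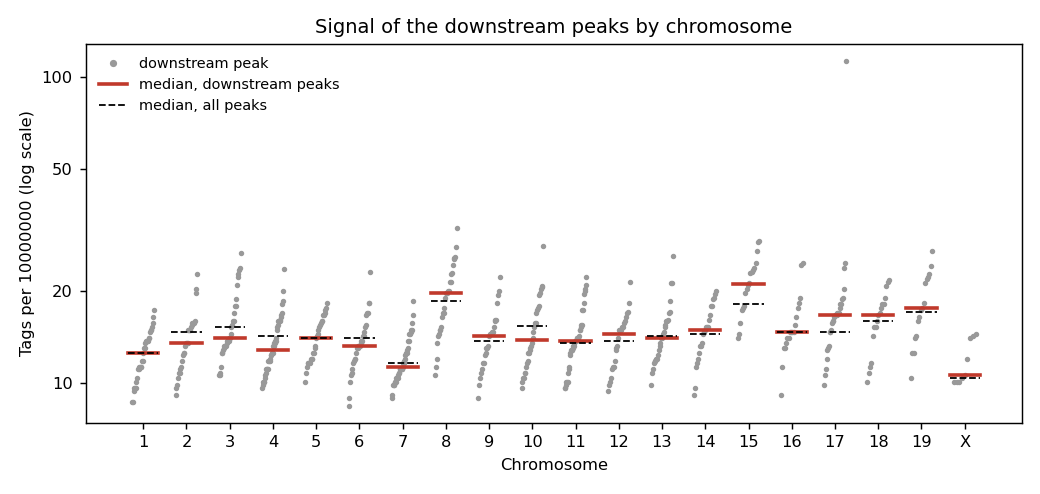
Tags per 10000000 (y axis, log scale) of each downstream peak (grey points) by chromosome (x axis), with the median of the downstream peaks in red and that of all peaks dashed. The medians on chromosomes 8 and 15 are 19.7 and 21.0 tags, those on 7 and X are 11.3 and 10.6, and the black dashes lie near the red lines.

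In base composition the downstream peaks stood between the upstream peaks and those on single start sites. The central 200 bp had a median GC content of 55.0% downstream (quartiles 47.0 and 66.0%), 47.5% upstream (42.5 and 53.0%) and 64.0% at single start sites (54.5 and 71.0%). A peak was called CpG-island-like where the 481 bp of the peak had at least 50% GC and a ratio of observed to expected CpG of at least 0.6. This held for 1753 of all 4311 peaks (40.7%, Wilson interval 39.2 to 42.1%), a share close to that of the downstream peaks, which were CpG-island-like in 230 of 537 (42.8%, 38.7 to 47.1%). The classes the downstream peaks were set against lay on either side, at 15.4% of the upstream peaks (odds ratio 4.11, 95% interval 3.21 to 5.28, adjusted p = 1.05e-30) and 73.3% of the single start site peaks (odds ratio 0.273, 0.220 to 0.337, adjusted p = 2.16e-34, two-sided Fisher's exact tests). At matched distances the difference from the upstream side was present near the TSS and not detected far from it. Up to 500 bp the shares were 55.1 and 20.8% (odds ratio 4.65, 3.43 to 6.34, Fisher's exact test, adjusted p = 6.28e-25), and between 500 and 1000 bp 26.4 and 7.61% (odds ratio 4.34, 2.41 to 7.88, adjusted p = 8.77e-07). Beyond 1000 bp they were 17.5 and 12.7% (odds ratio 1.46, 0.558 to 3.95, Fisher's exact test, adjusted p = 0.564).

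Positions with the same offset in genes without a peak showed the same lean. In 18008 protein-coding genes with no peak within 2500 bp of the TSS, the 200 bp centred 424 bp downstream, the median distance of the downstream peaks, had a median GC content of 53.0% (quartiles 44.5 and 63.0%), and the 200 bp centred 424 bp upstream one of 46.5% (quartiles 40 and 52.5%). The downstream peaks were also set against the mirror position of their own TSS, at the same distance on the other side. Its median GC content was 50%, and the peak was richer in GC than the mirror in 330 of 537 (61.5%). Among the upstream peaks, 249 (24.6%) were richer than the position across their TSS. Repeats were fewer downstream than upstream, with 28 downstream peaks (5.21%) having at least 50% of the central 200 bp masked, against 118 upstream (11.6%). The share was 6.36% over all peaks and 1.69% at single start sites. These differences were not tested.

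**Figure D4:**
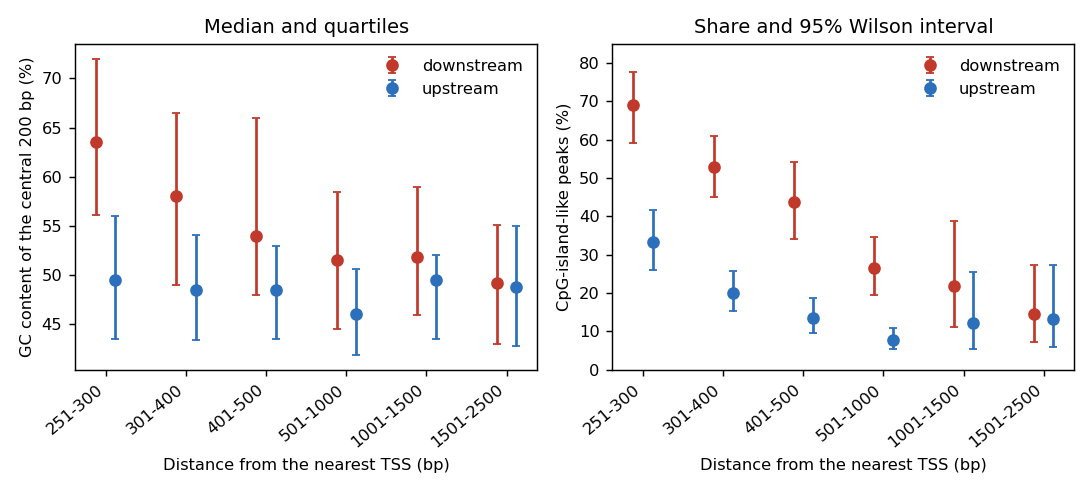
GC content of the central 200 bp (left, median with quartile bars, percent) and share of CpG-island-like peaks (right, with 95% Wilson intervals, percent) by distance from the nearest TSS (x axis, bp), downstream in red and upstream in blue. Downstream values are higher up to 1000 bp, with median GC content falling from 63.5% in the bin next to 250 bp to 51.5% between 500 and 1000 bp, and the intervals overlap beyond 1000 bp.

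Motifs were then counted in the central 200 bp, to ask whether the downstream peaks carried the sequence of FOXO3a or of other promoter factors. The exact sequences were GTAAACA (FOXO), GCGGGAA (E2F), TCACGTG (TFEB), TGACGTC (CREB), CCGGAAG (ETS), GGGGCGGGG (SP), GCGCATGCG (NRF1), AAGATGGCG (YY1), CCAATCA (NFY), TGACTCA (AP-1) and ACTACAATT (ZNF143) on both strands, and GGTAAG (splice donor) on the gene strand. The FOXO sequence lay in 15 downstream peaks (2.79%, Wilson interval 1.70 to 4.56%), 2.96% of the upstream peaks and 1.65% of the 18008 windows at genes without a peak. Those windows lay at the single offset of 424 bp, at protein-coding genes only, and were not matched in distance to any class of peaks. Downstream against upstream gave an odds ratio of 0.942 (0.466 to 1.82, adjusted p = 1, Fisher's exact test). Of the 12 motifs, 0 differed between downstream and upstream peaks after adjustment and 1 did before it. That was E2F, the family that controls cell cycle genes, found in 3.91% downstream and 1.68% upstream (odds ratio 2.38, 1.19 to 4.86, Fisher's exact test, p = 0.00915, adjusted p = 0.110), against 2.87% of the windows without a peak. With only the first TSS of each gene, E2F passed the threshold (odds ratio 3.71, Fisher's exact test, adjusted p = 3.40e-05). Among CpG-island-like peaks alone the E2F odds ratio was 0.821 (0.301 to 2.30), and among the others 3.57 (1.25 to 10.5). Neither passed after adjustment.

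Against the single start site peaks, 4 of the 12 motifs passed the threshold and 6 did so before adjustment. The FOXO sequence (2.79 against 0.915%, odds ratio 3.11, 1.37 to 7.16, Fisher's exact test, adjusted p = 0.0197) and the AP-1 sequence (2.23 against 0.633%, odds ratio 3.58, 1.38 to 9.69, adjusted p = 0.0197) were more frequent downstream. ETS, bound by a family that acts at many housekeeping promoters (2.79 against 7.67%, odds ratio 0.346, 0.185 to 0.603, Fisher's exact test, adjusted p = 4.81e-04), and E2F (3.91 against 7.18%, odds ratio 0.526, 0.309 to 0.859, adjusted p = 0.0199) were less frequent. With TSSs of protein-coding genes only, ETS still passed (adjusted p = 0.0104, Fisher's exact test), whereas the others missed it at similar odds ratios, of 2.96 for FOXO (adjusted p = 0.0546), 0.526 for E2F (0.0570) and 2.94 for AP-1 (0.0935). Over the whole peak in place of its central 200 bp, the odds ratio for FOXO was 1.56 (adjusted p = 0.0954, Fisher's exact test). Among peaks at least 8-fold over input none of the 4 passed by Fisher's exact test, with odds ratios of 0.518 for ETS and 3.34 for AP-1 (adjusted p = 0.165 for both) and of 1.58 for FOXO and 0.752 for E2F (adjusted p = 0.623 for both). The windows at genes without a peak held ETS at 2.46% and AP-1 at 2.17%, close to the downstream shares, and the upstream peaks held them at 1.78 and 1.48%. When only CpG-island-like peaks were compared, or only the others, 0 of the 12 motifs passed in either group, with the adjusted p for FOXO at 0.700 and 0.218, and 3 and 2 motifs, in that order, had an unadjusted p under 0.05. Fewer peaks enter each of these comparisons. The splice donor sequence was in 2.61% of the downstream peaks and 2.76% of the upstream peaks. It was in 5% of the single start site peaks (Fisher's exact test, adjusted p = 0.0588) and 5.98% of the windows at genes without a peak. Among the remaining motifs the downstream shares were 2.42% for SP, 2.05% for NFY, 1.12% for TFEB, 0.745% for YY1, 0.559% for CREB and 0.186% for NRF1. ZNF143 was found in 0 of 537 downstream peaks.

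**Figure D5:**
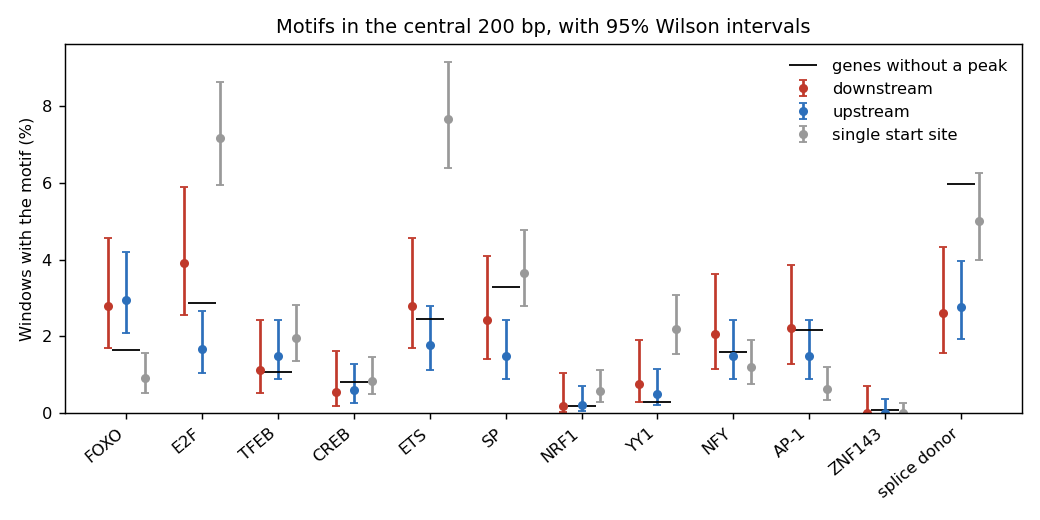
Share of peaks with each motif in the central 200 bp (y axis, percent) for downstream (red), upstream (blue) and single start site peaks (grey), with 95% Wilson intervals, and the share of windows at genes without a peak (black dash). For FOXO the downstream and upstream shares are 2.79 and 2.96%, and for ETS the single start site share of 7.67% stands above both.

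The 15 downstream peaks with the FOXO sequence were of ordinary strength and mixed function. Their tags per 10000000 ran from 8.91 in Usp3, a histone H2A deubiquitinase, to 21.4 in Rnf113a2, an intronless relative of a splicing-associated ubiquitin ligase. Folds over input ran from 4.18 at the gene model Gm42841 to 34.3 in Snx13, with Gm9949 at 29.9, Grpel1 at 29.3, Tmem171 at 19.6 and the lincRNA 2810403G07Rik at 8.35. The Snx13, Gm9949 and Grpel1 peaks sat on the lowest input step and held 13.2, 11.6 and 11.3 tags. Shprh, a ubiquitin ligase of DNA damage tolerance, reached 4.90-fold, Chd2, a chromatin remodeller, 5.19-fold, Pyroxd1, an oxidoreductase, 5.09-fold, Cp, the copper carrier ceruloplasmin, 7.10-fold, and Aspdh, a putative aspartate dehydrogenase, 6.44-fold. The pseudogene Gm19457 completed the set at 4.67-fold. The Rgs12 peak with the sequence had 11.6 tags at 9.97-fold, and the second downstream peak of Rgs12, at another TSS of the gene, had 16.6 tags at 10.9-fold without it.

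Autophagy genes, the group the study is about, had downstream peaks at a handful of members. Of 43 genes of the autophagy machinery, 13 had a peak within 2500 bp of a TSS and 2 of these had a downstream one. They were Wipi2 (14.4 tags, 12.5-fold), a phosphoinositide-binding protein that brings the ATG16L1 complex to the forming autophagosome, and its relative Wipi1 (9.87 tags, 8.51-fold). Of 50 autophagy and lysosome genes that the study had singled out from its own RNA-seq, 13 had a peak and 3 a downstream one: Vps11, a core subunit of the HOPS and CORVET tethering complexes (14.4 tags, 9.35-fold), March8, an endosomal ubiquitin ligase (13.2 tags, 8.57-fold), and Ap1g2, an adaptor subunit of the trans-Golgi and endosomes (13.2 tags, 4.90-fold). For comparison, 2957 of all 21924 protein-coding genes had a peak within 2500 bp of a TSS, and 405 of these 2957 (13.7%) had a downstream one. Among the genes of these 2 lists with a peak, the downstream shares were 15.4 and 23.1%, each resting on 3 or fewer genes. How often the lists had any peak was not tested against all genes. Of 26 genes of the AMPK, FOXO and Pontin pathway, 8 had a peak and 0 a downstream one.

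The remaining lists are given as genes with a downstream peak among those with any peak within 2500 bp of a TSS. Cytoplasmic ribosomal protein genes had 3 of 36, or 8.33% (Rpl27 with 20.2 tags and 8.72-fold, Rpl27a with 14.7 and 6.33-fold, Rpl38 with 13.7 and 17.8-fold). Mitochondrial ribosomal protein genes had 3 of 31, or 9.68%, namely Mrps33 (14.7 tags, 38.0-fold), Mrpl42 (10.1 tags, 13.1-fold) and Mrpl39 (13.5 tags, 5.81-fold). Splicing factor genes had 3 of 20, or 15%, namely Hnrnpm (18.8 tags, 24.3-fold), Tra2b (19.0 tags, 7.03-fold) and Hnrnpu (15.2 tags, 5.79-fold). Proteasome genes had 2 of 15, or 13.3%, namely Psmb5, which encodes the chymotrypsin-like catalytic subunit (19.0 tags, 6.15-fold), and Psmc1, an ATPase of the regulatory particle (14.0 tags, 36.1-fold). The Mrps33 and Psmc1 peaks sat on the lowest input step. The integrated stress and unfolded protein response had 2 of 9, or 22.2%, namely Shmt2 and Atf6, the membrane-bound sensor of endoplasmic reticulum stress (13.7 tags, 17.8-fold). Glycolysis had 1 of 4, Aldoa (13.7 tags, 5.92-fold). The share over all protein-coding genes with a peak, 13.7%, lies above those of both ribosomal protein lists and of the proteasome list (13.3%). None of the shares was tested. None was found among the immediate early and stress response regulators (0 of 3), the fibroblast matrix and cytoskeleton genes (0 of 3), the replication-dependent histones (0 of 2) or the small nucleolar RNA hosts (0 of 5). Of the 10 fibroblast markers, 2 had a peak near a TSS and 1 of these, Thy1 (15.2 tags, 19.6-fold), a downstream one. Of 9 markers of other cell types, 0 had any peak near a TSS. Over all 21924 protein-coding genes, 2957 had one, and the marker counts, which are small, were not tested against that share.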

How the data were processed

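Methylated Pontin ChIP-seq was analysed from 1 starved MEF library, 1 of 4 libraries, with no replicate. The authors aligned paired reads to mm10 with Bowtie2 and called peaks with HOMER 4.7.2 against an input. Per the file headers, 20765512 tags gave 13480 putative peaks at a false discovery rate of 0.001, 3822 were removed against input and 5347 against the local signal, each at 4-fold and a Poisson p-value of 1.00e-04, and 4311 peaks of 481 bp at least 962 bp apart were kept. Thus no weaker region is listed and folds below 4 cannot occur.

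The deposited signal is the tag count per 10000000 tags, the deposited fraction the focus ratio, the deposited score the peak caller's own measure, and the deposited ratios are fold over input and over local signal with p-values. Another 2 value columns and the clonal fold were not used. Distances ran from peak centres to 132758 GENCODE vM21 TSSs, and sequences were read from the GRCm38/mm10 genome. Shares have 95% Wilson intervals and tag counts exact Poisson intervals, which cover counting error only. Two-sided Fisher's exact tests (SciPy 1.17.1) compared peak classes, with Benjamini-Hochberg adjustment over 10 share tests and over the 12 motifs of each comparison. The scripts were checked on simulated data. A fold of 8 over input was the limit used for counting peaks, and 55.9% of all peaks reached it. CpG-island-like and repeat-masked calls use the sequence alone. The genes named were the 10 downstream peaks with the most tags, the 10 with the highest fold, those with the FOXO sequence and those on the gene lists, of which 1 list is not reported here. The members, limits and lists were chosen with earlier results of these data known. Alternatives changed the TSS set, the distance limits, the divergent pairs, the peak limits, the fold limit and the window.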

Additional observations from a re-analysis of the deposited data

How the results depend on the processing

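The number of downstream peaks was 205 at distances above 500 bp, 291 when only peaks at least 8-fold over input were kept and 257 in the upper part of all peaks by score. Their share of all peaks was 10.3% with protein-coding TSSs only, 17.8% with the first TSS of each gene only, 10.6% at distances up to 1000 bp, 4.76% at distances above 500 bp, 14.4% with divergent pairs kept and 11.3% in the upper part by score. The share at least 8-fold over input was 47.8% at distances above 500 bp and 59.5% in the upper part by score, where the median was 16.9 tags per 10000000. The median GC content was 58.0% with protein-coding TSSs, 60.5% with first TSSs and 51.0% at distances above 500 bp, and the intron share was 72.5% with protein-coding TSSs. The odds ratio of an at least 8-fold peak, downstream against upstream, had an unadjusted p under 0.05 at distances above 500 bp (0.690, p = 0.0342, Fisher's exact test) and with divergent pairs kept (0.784, p = 0.0185), against 0.0948 with the original limits; these p-values were not adjusted over the 10 tests, and the cause was not tested.

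Against upstream peaks 1 motif in place of 0 passed with first TSSs, with divergent pairs kept and with peaks at least 8-fold over input, each time E2F (odds ratios 3.71, 2.55 and 4.25). Against single start site peaks the 4 calls became 1 with protein-coding TSSs and 1 with first TSSs, ETS both times, 0 with peaks at least 8-fold over input, 0 in the upper part by score and 9 over the whole peak, which did not include FOXO (odds ratio 1.56, adjusted p = 0.0954, Fisher's exact test). The division by CpG-island-like sequence, which left 0 and 0 calls, and the omission of Pisd-ps2 were chosen after seeing the data. The odds ratio turned for FOXO against upstream peaks at distances above 500 bp (1.47) and outside CpG-island-like peaks (1.14). It also turned for E2F against upstream peaks within CpG-island-like peaks (0.821). Against single start sites it turned for E2F outside CpG-island-like peaks (1.24) and for AP-1 within them (0.754). No paired analysis was possible because each group has 1 library. The depth, a median of 29.1 tags a peak over an input of a few tags, limits the ranking by fold.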

Other observations

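Of the 537 downstream peaks, 16 had another peak centre within 2500 bp and 43 within 10 kb. Peaks of the list lie at least 962 bp apart. The like shares over all peaks were not computed, so the counts set no trait of the downstream peaks apart. The focus ratio, the peak caller's share of tags lying on the side of the centre that a point source would give, had a median of 0.667 downstream, 0.661 upstream and 0.670 at single start sites.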
